A study of Rattus norvegicus with 24 samples.

Results

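Transcript levels in the lateral striatum were compared between rats whose dopamine input had been destroyed and which received no levodopa, and rats with the input left in place which did receive it. The comparison rests on 6 of the 24 arrays of the study: 3 from lesioned, untreated rats and 3 from intact, levodopa-treated rats, chosen by these labels alone. All animals were adult male Sprague Dawley rats operated on 1 side of the brain. The lesioned rats had 2 injections of 6-hydroxydopamine (6-OHDA), a toxin taken up by dopamine neurons, at 5 µg/µl, and the intact rats had the vehicle of the toxin, ascorbic acid in saline, by the same surgery. A lesion counted as successful when striatal dopamine had dropped by more than 90%. Daily injections began 3.5 weeks after surgery and held levodopa, the precursor of dopamine, for the intact rats and saline for the lesioned untreated rats (labelled vehicle). The other 6 striatal arrays came from lesioned rats on levodopa, 3 that developed involuntary movements (dyskinetic) and 3 that did not (non-dyskinetic). The other 12 arrays came from the substantia nigra. Each striatal array held RNA of a 2 mm × 2 mm punch, and each nigral array RNA of a 0.5 mm × 1.5 mm punch. Every punch came from a single animal, so that the p-values measure the spread between animals. Which side was punched, how much levodopa was given and how long after the last injection the rats died are not given in the sources used here. No group was both intact and free of levodopa. The 2 groups therefore differ in the lesion and in the drug at once, and the effects of these cannot be told apart. The punch is bulk tissue, so fewer cells of a type and less RNA per cell cannot be told apart either.

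The striatum is built mainly of GABA-releasing projection neurons of 2 kinds. Direct-pathway neurons carry the D1 dopamine receptor and make the peptide precursors of substance P (Tac1) and dynorphin (Pdyn). Indirect-pathway neurons carry the D2 receptor and make the precursor of the enkephalins (Penk). Dopamine raises the activity of cAMP signalling through D1 and lowers it through D2. It is textbook knowledge from 6-OHDA lesioned rats that Tac1 and Drd1 mRNA fall and Penk mRNA rises in striatum without dopamine, and that levodopa changes several of these mRNAs again.

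Loss of dopamine neurons was checked in the nigral arrays of the same groups. All 3 lesioned untreated animals and 2 of the 3 intact animals gave both tissues. Th (tyrosine hydroxylase, which makes levodopa from tyrosine) had nigral log2 values of 11.30, 10.91 and 10.21 in lesioned untreated rats and 13.39, 13.50 and 13.38 in intact rats. The nigral difference of Th was −2.62 ± 0.302 on the log2 scale (SE, limma, adjusted p = 0.00014), a 6.15-fold fall. Slc18a2, the vesicular monoamine transporter, fell by 3.31 ± 0.31 (adjusted p = 3e-05), Slc6a3, the dopamine transporter, fell by 2.92 ± 0.359 (adjusted p = 0.00022), and Ddc, which turns levodopa into dopamine, fell by 2.68 ± 0.217 (adjusted p = 1.3e-05). In striatum, where the dopamine neurons have axons but no cell bodies, Th differed by 0.30 ± 0.17 and did not pass the test (adjusted p = 0.75). The labelled tissue carried its own markers: the mean level of 16 projection neuron markers lay at 11.57 to 11.58 in lesioned untreated and 11.63 to 11.68 in intact striatum. Array medians lay between 7.90 and 7.98, and all 6 arrays correlated with each other at 0.987 to 0.995 over genes. Lesioned untreated array 3 had the lowest correlations with its own group, 0.988 and 0.990.

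Of 12436 genes tested, 55 passed an adjusted p of 0.05, which is 0.442% of them. In lesioned untreated striatum 33 (0.265%) were higher and 22 (0.177%) were lower than in intact striatum on levodopa. The 7 rises of at least a doubling were those of Nmu, Nts, Fst, Htr2a, Inhba, Hspb1 and Mmp9, and no fall reached a halving. The largest fall was that of Tac1, at −0.84, and the smallest called change had a size of 0.37. In all 55 the 3 and 3 arrays did not overlap, against 14.8% of all genes tested. The median difference over all genes was −0.012. Without adjustment 968 genes (7.78%) had a p under 0.05, 3.72% higher and 4.07% lower, where 621.8 would do so by chance.

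**Figure D1:**
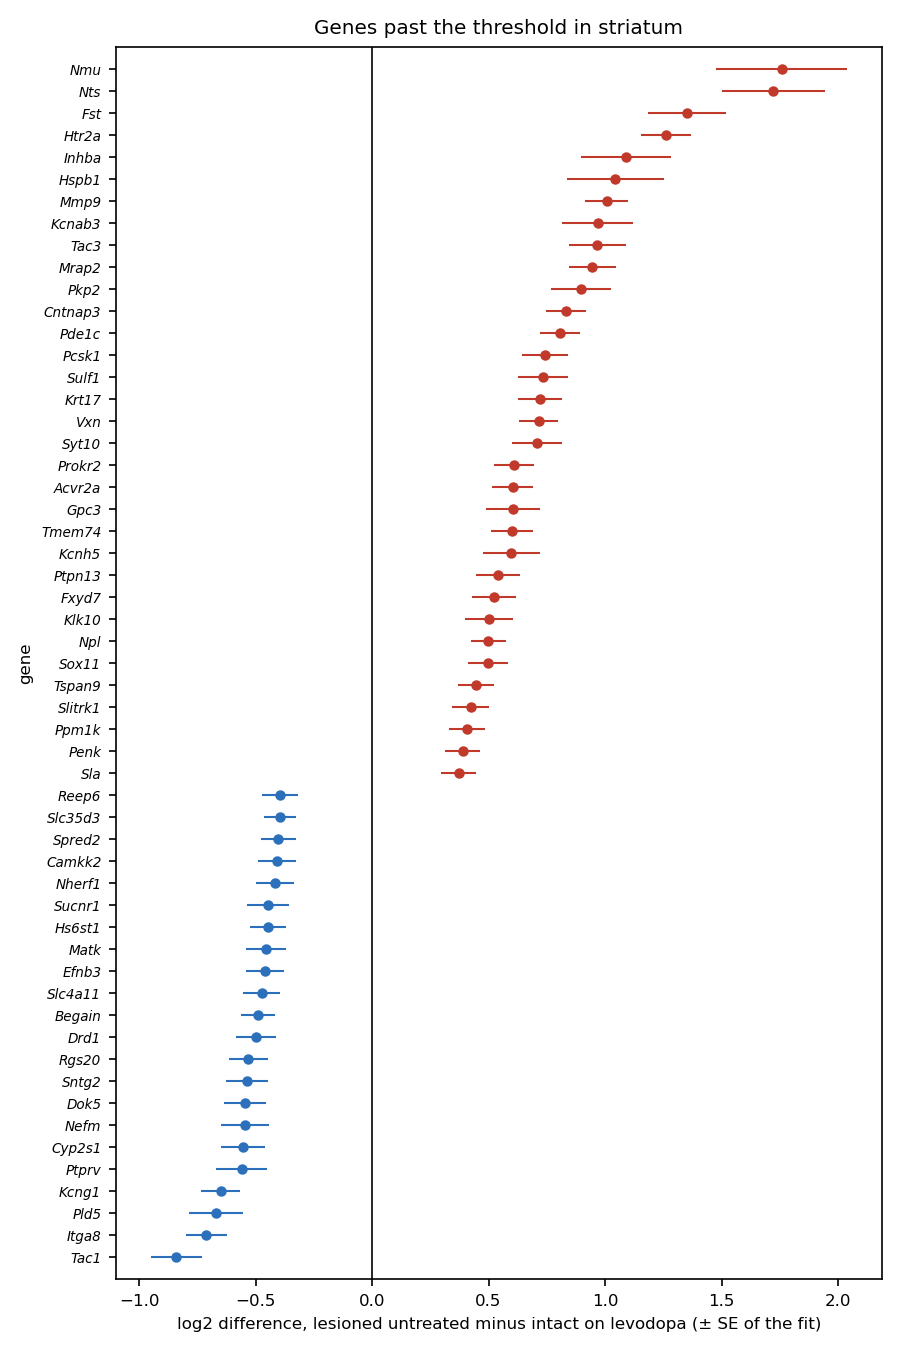
Differences of the 55 genes past the threshold. Each point is the log2 difference of lesioned untreated minus intact levodopa-treated striatum (3 arrays each), with the standard error of the fit; 33 genes lie above 0 and 22 below, and the rises reach 1.76 (Nmu) while the falls end at −0.84 (Tac1).

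Of 10 direct-pathway markers tested, 3 fell in lesioned untreated striatum (Tac1, Drd1 and Slc35d3), none rose and 7 did not pass, while all 10 differences were below 0, against 55.4% of all genes tested (44.6% lay above 0). Their median was −0.27, and of all genes tested 0.177% were called lower. Tac1, the precursor of substance P and neurokinin A, had log2 values of 10.19, 10.29 and 10.17 in lesioned untreated rats and of 10.93, 11.10 and 11.14 in intact rats. The groups did not overlap, and the gap was several times the spread within either. The fall was 0.84 ± 0.11 on the log2 scale (adjusted p = 0.0016), or 1.79-fold. It was called in each of the 17 alternative settings.

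Drd1, the D1 dopamine receptor, had values of 10.41, 10.47 and 10.66 against 11.00, 11.04 and 10.99. The intact arrays lay close together and all above the lesioned ones, and Drd1 fell by 0.50 ± 0.0862 (adjusted p = 0.014). Slc35d3, an orphan solute carrier that mouse D1 receptors need to reach the cell surface, had values of 9.06, 9.07 and 9.00 against 9.48, 9.36 and 9.48. It fell by 0.40 ± 0.0687 (adjusted p = 0.014). Neither call held in most fits that left out 1 array. That of Drd1 was lost without any 1 array except lesioned untreated array 3, and that of Slc35d3 without any except intact array 2. Over the 17 settings the differences stayed between −0.57 and −0.44 for Drd1 and between −0.44 and −0.37 for Slc35d3. The adjusted p of Drd1 reached 0.099 without lesioned untreated array 2, and that of Slc35d3 reached 0.11 without intact array 3. Without 1 of the 6 arrays, 1 or 2 of the 10 markers were called, not 3.

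Pdyn, the dynorphin precursor, had values of 9.23, 9.67 and 9.73 in lesioned untreated rats and of 10.28, 10.49 and 10.18 in intact rats. The groups did not overlap, but the difference of −0.77 ± 0.169 did not pass the test (adjusted p = 0.069). Pdyn was called in 2 of the 17 settings. These were a fit of the 6 arrays alone, which leaves out the spread of the lesioned rats on levodopa (adjusted p = 0.033), and array weights (adjusted p = 0.012). It did not pass without any 1 of the 6 arrays, and its adjusted p reached 0.33 without lesioned untreated array 1. The other direct-pathway markers did not pass. Chrm4, the M4 muscarinic receptor, differed by −0.30 and the transcription factor Ebf1 by −0.24, with adjusted p-values of 0.53 and 0.51. The transcription factor Isl1 differed by −0.12 and Zfp521, nearest to 0, by −0.04.

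Markers of the indirect pathway leaned the other way, with 1 call. Penk, the enkephalin precursor, had values of 12.85, 12.81 and 12.64 in lesioned untreated rats and of 12.44, 12.29 and 12.40 in intact rats. All lesioned arrays lay above all intact ones. Penk rose by 0.39 ± 0.0756 (adjusted p = 0.034), or 1.31-fold, and each of its 6 probe sets was higher without overlap. These probe sets make up the mean that was called. The share without overlap over all probe sets is not given here, so the count is a description. The call was lost in 7 of 17 settings, among them without any 1 array except lesioned untreated array 3, with adjusted p-values of 0.08 in the 6 arrays alone, 0.15 with the median over probe sets and 0.22 without intact array 2. Drd2, the D2 receptor, had values of 11.71, 11.70 and 11.69 against 11.55, 11.51 and 11.64, and its difference of 0.13 ± 0.0673 did not pass (adjusted p = 0.68). Adora2a, an adenosine receptor of these neurons, differed by 0.09. Of the 6 markers tested 1 rose and none fell, with a median of 0.11. Above 0 lay 5 of them, against 44.6% of all genes tested, and Sp9 differed by −0.07. Of 16 markers shared by both kinds of projection neuron none passed, 15 lay below 0, against 55.4% of all genes tested, and the median was −0.083.

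**Figure D2:**
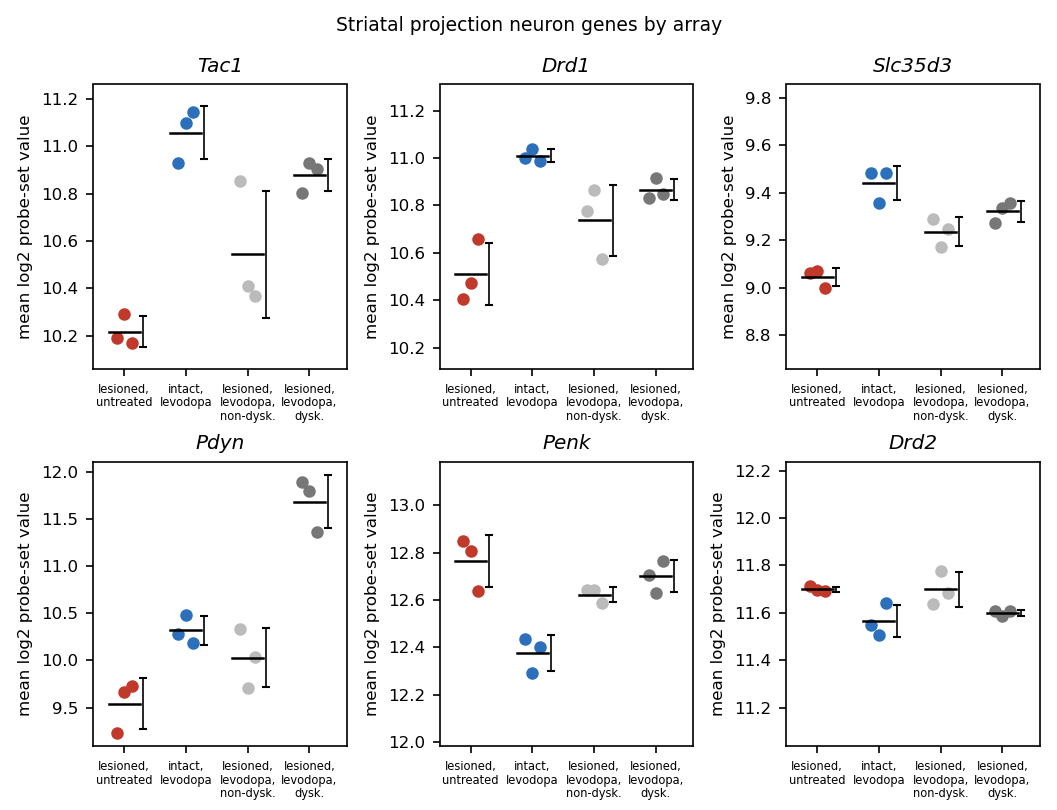
Log2 values by array of 4 direct-pathway genes (Tac1, Drd1, Slc35d3, Pdyn) and 2 indirect-pathway genes (Penk, Drd2). Each point is 1 array, the horizontal line the mean of 3 and the bar beside it their SD; the lesioned untreated arrays lie below the intact ones for the first 4 genes and above them for Penk and Drd2, of which Pdyn and Drd2 did not pass the test.

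Precursors of neuropeptides held the largest differences. Of 13 tested, 4 rose (Nmu, Nts, Tac3 and Penk) and 1 fell (Tac1), against 0.265% and 0.177% of all genes tested, and the median was 0.16. The list was chosen with earlier results of these data known, so its share of calls is a description. Neuropeptides are cut from longer precursors inside secretory vesicles and act on G protein-coupled receptors. Nts encodes neurotensin, a peptide that modulates dopamine signalling. Its values were 8.26, 8.47 and 8.06 in lesioned untreated rats against 6.86, 6.10 and 6.66 in intact rats, with more than 1 log2 unit between the groups. Nts rose by 1.72 ± 0.221 (adjusted p = 0.0015), or 3.3-fold, and was called in all 17 settings.

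Nmu, the precursor of neuromedin U, had values of 8.62, 8.55 and 7.68 against 6.57, 6.38 and 6.63. The third lesioned array lay well below the others of its group but above every intact array. Nmu rose by 1.76 ± 0.281 (adjusted p = 0.0081), or 3.38-fold, and missed the threshold without lesioned untreated array 2 (adjusted p = 0.064) and under the robust prior (adjusted p = 0.089). Tac3, the precursor of neurokinin B, had values of 10.00, 10.23 and 9.91 against 8.97, 9.08 and 9.18. It rose by 0.97 ± 0.121 (adjusted p = 0.0013), while its sister tachykinin gene Tac1 fell. Tacr3, the neurokinin B receptor, had values of 6.57, 6.51 and 6.89 against 7.29, 7.08 and 7.35, and its difference of −0.58 did not pass (adjusted p = 0.23). None of the 5 opioid and tachykinin receptors tested passed, against 0.442% of all genes tested, and their median was −0.14.

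Pcsk1, the prohormone convertase that cuts many such precursors, had nearly equal values of 8.57, 8.57 and 8.56 in lesioned untreated rats and of 7.81, 7.67 and 8.0 in intact rats. It rose by 0.74 ± 0.0997 (adjusted p = 0.002), and 13 of its 16 probe sets were higher without overlap. As for Penk, this count is a description, since the called value is the mean of these probe sets. Other precursors did not pass: Cck, the cholecystokinin precursor, differed by 0.56 (adjusted p = 0.32), Sst, the somatostatin precursor, by −0.21 (adjusted p = 0.58), and Trh, the precursor of thyrotropin-releasing hormone, by −0.15 (adjusted p = 0.97).

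The promoters of Nts, Nmu and Tac1 are shown because these genes had the largest rises and the largest fall, and because cAMP and calcium signals reach many peptide genes through short promoter elements. The windows are from RefSeq, rat assembly GRCr8, 250 bases before to 50 after the start of the gene, 5′ to 3′ on the strand of the gene: chr7:39460839-39461138 (minus strand) for Nts, chr14:32198693-32198992 (plus) for Nmu and chr4:36645333-36645632 (plus) for Tac1. Capitals mark the AP-1 motif TGANTCA, to which Fos and Jun proteins bind, and the core of the cAMP response element, TGACG or its reverse complement CGTCA.
Nts: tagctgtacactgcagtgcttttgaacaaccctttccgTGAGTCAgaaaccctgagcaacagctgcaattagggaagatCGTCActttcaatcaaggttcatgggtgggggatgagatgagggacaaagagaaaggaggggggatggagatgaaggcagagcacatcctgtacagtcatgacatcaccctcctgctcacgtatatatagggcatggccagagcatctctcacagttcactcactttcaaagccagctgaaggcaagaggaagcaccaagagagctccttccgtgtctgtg
Nmu: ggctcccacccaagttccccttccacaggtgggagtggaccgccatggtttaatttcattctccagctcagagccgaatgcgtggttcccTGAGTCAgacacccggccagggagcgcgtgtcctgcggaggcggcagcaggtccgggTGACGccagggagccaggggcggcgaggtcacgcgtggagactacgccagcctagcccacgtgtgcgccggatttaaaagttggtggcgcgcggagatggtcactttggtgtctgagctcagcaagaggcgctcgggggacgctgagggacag
Tac1: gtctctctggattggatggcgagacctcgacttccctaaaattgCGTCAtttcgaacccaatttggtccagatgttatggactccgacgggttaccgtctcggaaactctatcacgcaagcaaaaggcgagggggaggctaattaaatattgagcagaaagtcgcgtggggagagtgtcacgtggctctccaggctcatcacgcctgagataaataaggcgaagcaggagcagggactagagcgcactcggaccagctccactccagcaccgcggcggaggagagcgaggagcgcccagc
Both strands were searched. Nts and Nmu held 1 AP-1 motif each, with the same letters TGAGTCA, and 1 core element each, and Tac1 held 1 core element and no AP-1 motif. Of 32 called genes with a promoter in the table, 3 (9.38%) held AP-1, against 7.33% of all 33469 promoters of the table. The core element was in 9 of the 32 (28.1%), against 21.2% of all. These matches are descriptions of the letters in these windows.

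Among receptors, Htr2a had the smallest p of all 12436 genes. It encodes the 5-HT2A serotonin receptor, which couples to Gq. Its values were 10.21, 10.52 and 10.45 in lesioned untreated rats and 9.19, 9.18 and 9.01 in intact rats. More than 1 log2 unit lay between the lowest lesioned and the highest intact array. Htr2a rose by 1.26 ± 0.108 (adjusted p = 9.2e-05), or 2.4-fold, with all 5 probe sets higher by 1.10 to 1.39. In nigra the difference of Htr2a was −0.71 ± 0.162 (adjusted p = 0.014), and the difference between the tissues passed in a fit of all 24 arrays where 5.72% of genes did so (adjusted p = 5.1e-07). It was the only call among 10 serotonin receptors, whose median was −0.037. Htr1b, the 5-HT1B receptor, had values of 11.88, 12.06 and 11.98 against 11.58, 11.62 and 11.55 and missed the threshold (0.39 ± 0.0804, adjusted p = 0.054), with 1 probe set. Htr6, a receptor coupled to cAMP, differed by −0.34 (adjusted p = 0.17) and Htr2c, the 5-HT2C receptor, by −0.24 (adjusted p = 0.65).

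Prokr2, a receptor for prokineticins, had values of 7.92, 7.74 and 7.66 against 7.09, 7.23 and 7.17 and rose by 0.61 ± 0.0869 (adjusted p = 0.0038). Mrap2, an accessory protein that changes the signalling of melanocortin and prokineticin receptors, had values of 8.42, 8.40 and 8.38 against 7.32, 7.55 and 7.50 and rose by 0.94 ± 0.101 (adjusted p = 0.00038). Mrap2 was called in all 17 settings and Prokr2 in the 15 that tested it. Sucnr1, the succinate receptor, fell by 0.45 (adjusted p of at most 0.0497) and rested on 1 probe set. Its call was lost in 11 of the 15 settings that tested it, without each of the 6 arrays among them, with an adjusted p of up to 0.28.

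Of the genes that passed, 3 act in activin signalling, and they were picked out after their values were seen. Activins are dimers of inhibin beta chains that signal through type II and type I receptors to Smad proteins, and follistatin binds and neutralises them. Fst, which encodes follistatin, had values of 9.09, 8.89 and 9.35 against 7.85, 7.83 and 7.60 and rose by 1.35 ± 0.166 (adjusted p = 0.0013), or 2.55-fold. Inhba, the beta A chain, had values of 9.70, 9.91 and 9.87 against 8.66, 8.86 and 8.69. It rose by 1.09 ± 0.193 (adjusted p = 0.016), but its call was lost without lesioned untreated array 2 or 3 or intact array 1 or 3, where its adjusted p reached 0.10. The robust prior lost the call of Inhba too (adjusted p = 0.05), while the fit of the 6 arrays alone kept it (adjusted p = 0.00048). Acvr2a, a type II receptor for activins, had values of 8.16, 8.33 and 8.14 against 7.68, 7.60 and 7.55 and rose by 0.60 ± 0.0888 (adjusted p = 0.0046). In none of the 3 did the groups overlap. Relatives of these genes did not pass: Inhbb, the beta B chain, differed by 0.02 ± 0.087 (adjusted p = 0.99), Acvr2b, another type II receptor, by 0.01 ± 0.0768 (adjusted p = 0.99), and the type I receptors Acvr1b and Acvr1c by 0.01 and −0.08. Fst and Inhba were the only calls among 16 neurotrophins and growth factors, whose median was −0.057. In that list Fgf11, an intracellular fibroblast growth factor homologue, differed by −0.60 (adjusted p = 0.076) and Igf1, insulin-like growth factor 1, by 0.38 (adjusted p = 0.27).

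Among 22 genes of the extracellular matrix and proteinases 1 rose and none fell, against 0.265% and 0.177% of all genes tested. Mmp9, a secreted gelatinase, had values of 7.00, 6.97 and 7.04 against 5.91, 6.01 and 6.07. Each group was tight and the gap close to 1 log2 unit. Mmp9 rose by 1.01 ± 0.0928 (adjusted p = 0.00012), a doubling, with all 14 probe sets higher. It was called in the 15 settings that tested it. The settings without dim probe sets or without the lowest 50% of genes did not test Mmp9. In the same list Timp1, an inhibitor of metalloproteinases, differed by 0.70 (adjusted p = 0.77) and Timp2, another inhibitor, by 0.34 (adjusted p = 0.29), and the median of the list was −0.009.

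Another 3 called genes, picked out after their values were seen, act on heparan sulfate or carry it. Sulf1, a secreted enzyme that removes 6-O-sulfate from heparan sulfate, had values of 8.19, 8.25 and 8.17 against 7.68, 7.44 and 7.28 and rose by 0.73 ± 0.109 (adjusted p = 0.0048). Hs6st1, which adds 6-O-sulfate to it, had values of 9.31, 9.16 and 9.31 against 9.71, 9.72 and 9.71 and fell by 0.45 ± 0.0772 (adjusted p = 0.014). With the median over probe sets both calls were lost, at adjusted p-values of 0.28 for Sulf1 and 0.064 for Hs6st1. Sulf2, Hs6st2 and Hs6st3, enzymes of the same kinds, differed by 0.07, 0.09 and −0.05 and did not pass (adjusted p of 0.87 to 0.98). Gpc3, a membrane proteoglycan with heparan sulfate chains, rose by 0.60 ± 0.116 (adjusted p = 0.032). The call of Hs6st1 was lost without lesioned untreated array 2 (adjusted p = 0.11) or any 1 intact array, and that of Gpc3 without any 1 array except intact array 3, with an adjusted p of up to 0.19. Itga8, the integrin alpha 8 chain, had values of 6.63, 6.80 and 6.86 against 7.40, 7.38 and 7.65. It fell by 0.71 ± 0.0879 (adjusted p = 0.0013) and was lower in 28 of its 31 probe sets.

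Among ion channel genes, Kcng1, a silent subunit that alters Kv2 potassium channels, had values of 9.57, 9.62 and 9.73 against 10.24, 10.34 and 10.29 and fell by 0.65 ± 0.0824 (adjusted p = 0.0014). Of 29 potassium channel genes tested it was the only call, and their median was −0.018. Outside that list 2 further potassium channel genes were higher. Kcnab3, an auxiliary beta subunit, had values of 8.24, 7.96 and 8.21 against 6.99, 7.19 and 7.33 and rose by 0.97 ± 0.152 (adjusted p = 0.0073). Kcnh5, an ether-a-go-go channel, rose by 0.60 ± 0.122 (adjusted p = 0.047), a call lost in 7 of 17 settings, among them without any 1 array except intact array 1 (adjusted p of up to 0.27). None of 21 calcium and sodium channel genes, 20 glutamate receptor genes or 15 GABA genes passed, against 0.442% of all genes tested. Their medians were −0.033, −0.012 and 0.016.

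Signalling genes downstream of receptors held single calls. Pde1c, a phosphodiesterase that calcium and calmodulin activate, had values of 7.62, 7.64 and 7.41 against 6.84, 6.74 and 6.68 and rose by 0.81 ± 0.0871 (adjusted p = 0.00038). Rgs20, a brake on G protein signalling, fell by 0.53 ± 0.0837 (adjusted p = 0.0073), and missed the threshold without intact array 3 (adjusted p = 0.065). Drd1 was the only call among 29 genes of dopamine and cAMP signalling, whose median was −0.025. Spred2, an inhibitor of Ras and ERK signalling, had values of 9.53, 9.61 and 9.74 against 10.01, 10.10 and 9.99 and fell by 0.40 ± 0.0752 (adjusted p = 0.026). It was the only call among 15 ERK feedback genes (median −0.13). Its call was lost in 8 of 17 settings, among them without any 1 array except lesioned untreated array 3, with an adjusted p of 0.48 when the median over probe sets was used. Etv5, a transcription factor that ERK induces, differed by −0.49 (adjusted p = 0.068), and Dusp4, an ERK phosphatase, by −0.43 (adjusted p = 0.35).

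The remaining large rises had mixed roles. Cntnap3, a neurexin-related adhesion protein, had values of 7.60, 7.51 and 7.45 against 6.77, 6.63 and 6.65 and rose by 0.83 ± 0.0848 (adjusted p = 0.0003). Pkp2, a plakophilin of cell junctions, rose by 0.90 ± 0.129 (adjusted p = 0.0039), but not with the median over probe sets (adjusted p = 0.088). Hspb1, a small heat shock protein, had values of 8.87, 9.02 and 9.00 against 8.14, 7.89 and 7.74 and rose by 1.04 ± 0.207 (adjusted p = 0.038). Hspb1 was the only call among 11 stress genes, whose median was 0.18, and it lost its call without any 1 of the 6 arrays, with an adjusted p of up to 0.24. The call was also lost with the median over probe sets (adjusted p = 0.11) and under the robust prior (adjusted p = 0.097). In the fit of the 6 arrays alone it was kept (adjusted p = 0.0014). Smaller rises were those of Syt10 (0.71), a calcium sensor for vesicle release, Krt17 (0.72), a keratin, Sox11 (0.50), a transcription factor of young neurons, Slitrk1 (0.42), a synaptic adhesion protein, and Npl (0.50), which breaks down sialic acid. Others were Vxn (0.72), Tmem74 (0.60), Fxyd7 (0.52), a regulator of the sodium pump, Ptpn13 (0.54), a tyrosine phosphatase, Klk10 (0.50), a kallikrein, Tspan9 (0.44), a tetraspanin, Ppm1k (0.41), a mitochondrial phosphatase, and Sla (0.37), a Src-like adaptor. With the median over probe sets the call of Krt17 was lost (adjusted p = 0.16). So were those of Sox11, Fxyd7, Ptpn13, Slitrk1, Klk10, Tspan9, Ppm1k and Sla, at adjusted p-values from 0.058 (Ppm1k) to 0.51 (Klk10). Klk10 lost its call in 12 of the 16 settings that tested it. Calls of Sox11, Fxyd7 and Ptpn13 were each lost without 4 of the 6 arrays in turn, and those of Slitrk1, Klk10, Tspan9, Ppm1k and Sla without 5, with adjusted p-values of up to 0.27 (Klk10 and Sla).

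The remaining falls ranged from 0.40 to 0.67 in size. Pld5, a member of the phospholipase D family, had values of 9.56, 9.28 and 9.50 against 9.98, 10.10 and 10.26 and fell by 0.67 ± 0.116 (adjusted p = 0.014), and it missed the threshold without lesioned untreated array 2, intact array 2 or intact array 3 (adjusted p of up to 0.11). Begain, a binding partner of the postsynaptic scaffold PSD-95, had values of 9.36, 9.41 and 9.31 against 9.85, 9.82 and 9.87 and fell by 0.49 ± 0.0721 (adjusted p = 0.0046). The SD within its groups was 0.0543 and 0.0256, far below the gap between them. Nefm, the medium neurofilament chain of axons, fell by 0.55 ± 0.103 (adjusted p = 0.028), a call lost without any 1 of the 6 arrays (adjusted p of 0.061 to 0.18). Efnb3, an ephrin of axon guidance, fell by 0.46 ± 0.0831 (adjusted p = 0.02) as the only call among 28 axon guidance genes, and Slit2, a secreted guidance factor in the same list, differed by 0.51 (adjusted p = 0.076). The call of Efnb3 was lost with the median over probe sets (adjusted p = 0.55) and without 4 of the 6 arrays in turn (up to 0.14). The others were Ptprv (−0.56), a receptor-type phosphatase, Cyp2s1 (−0.55), a cytochrome P450, Dok5 (−0.55), a docking protein of receptor kinases, Sntg2 (−0.54), a syntrophin, Slc4a11 (−0.47), a membrane transporter, Matk (−0.46), a kinase that inhibits Src-family kinases, Nherf1 (−0.42), a PDZ scaffold, Camkk2 (−0.41), a kinase upstream of AMPK, and Reep6 (−0.40). Each of these calls was lost without 3 or more of the 6 arrays in turn, and those of Ptprv, Camkk2 and Reep6 without any of them, with adjusted p-values of up to 0.23 (Nherf1 and Reep6). With the median over probe sets the calls of Cyp2s1, Dok5, Slc4a11, Nherf1, Camkk2 and Reep6 were lost too, at adjusted p-values of up to 0.41 (Reep6).

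**Figure D3:**
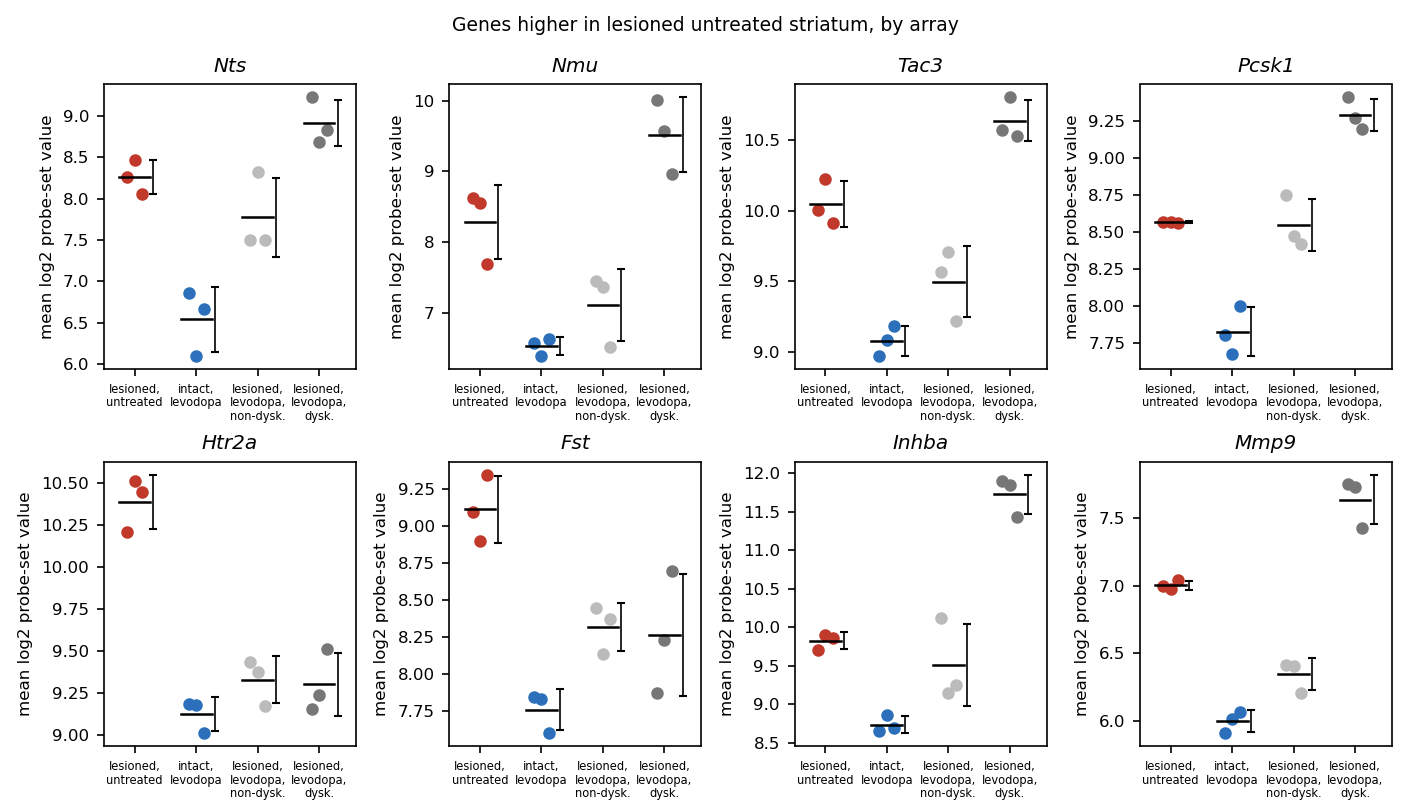
Log2 values by array of 8 genes that were higher in lesioned untreated than in intact levodopa-treated striatum, with the 2 groups of lesioned rats on levodopa beside them. Each point is 1 array, the line the mean of 3 and the bar their SD; for Htr2a the lesioned untreated arrays lie at 10.21 to 10.52, above all 9 others, while Inhba reaches 11.44 to 11.90 in the dyskinetic rats.

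The lesioned rats on levodopa share the fit and, in each difference below, 1 of the compared groups, so their values are set side by side and not as independent support. Htr2a had values of 9.44, 9.38 and 9.18 in non-dyskinetic and 9.16, 9.24 and 9.51 in dyskinetic rats. Both groups overlapped with the intact arrays and neither with the lesioned untreated ones. The difference of non-dyskinetic minus lesioned untreated was −1.06 ± 0.108 for Htr2a (adjusted p = 0.00094), in a comparison where 0.0322% of genes passed. The dyskinetic minus intact difference was 0.17 ± 0.108 (adjusted p = 0.34).

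Nts had values of 7.50, 8.32 and 7.50 in non-dyskinetic and 9.22, 8.69 and 8.83 in dyskinetic rats. The dyskinetic arrays lay above the lesioned untreated ones. Inhba stood at 10.12, 9.15 and 9.26 and at 11.90, 11.85 and 11.44, and Pdyn at 10.34, 9.71 and 10.04 and at 11.89, 11.80 and 11.36. For both genes every dyskinetic array lay above every other striatal array. Dyskinetic minus intact differences were 2.37 ± 0.221 for Nts (adjusted p = 9.2e-06), 2.99 ± 0.193 for Inhba (adjusted p = 6.1e-07) and 1.37 ± 0.169 for Pdyn (adjusted p = 0.00011), in a comparison where 10.3% of genes passed. Tac1 stood at 10.85, 10.41 and 10.37 in non-dyskinetic and 10.80, 10.93 and 10.90 in dyskinetic rats. The means of both groups, 10.54 and 10.88, lay between those of lesioned untreated and intact rats, 10.22 and 11.06. Mmp9, Krt17 and Vxn passed in non-dyskinetic minus lesioned untreated rats, with −0.66, −0.61 and −0.56 (adjusted p = 0.025, 0.028 and 0.028). Pcsk1 passed in non-dyskinetic minus intact rats, with 0.72 (adjusted p = 0.039), as did Kcng1, Begain and Cyp2s1 with −0.52, −0.47 and −0.58 (adjusted p = 0.043, 0.043 and 0.046), where 0.0482% of genes passed.

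Immediate early genes, the first to be transcribed in active neurons, showed no call. None of 15 tested passed, against 0.442% of all genes tested. None had an unadjusted p under 0.05 in limma, against 7.78% of all genes, and their median was 0.057. Fosb, whose protein accumulates after repeated stimulation, had values of 7.57, 7.76 and 7.41 against 7.24, 7.32 and 7.30, a difference of 0.30 ± 0.243 (adjusted p = 0.87). The lesioned arrays all lay above the intact ones, but narrowly. Nr4a2, a nuclear receptor, differed by 0.17 ± 0.33 (adjusted p = 0.97). The transcription factors Egr2 and Egr1 leaned the other way, by −0.42 and −0.24. Of the 15 genes 9 lay above 0, against 44.6% of all genes tested, and 6 lay below. The spread of the immediate early genes in the fit included dyskinetic arrays, in which Fosb stood at 10.05, 9.87 and 9.22. In a limma fit of the 6 compared arrays alone none of the 15 passed either. There the adjusted p was 0.27 for Fosb and 0.56 for Nr4a2. Chat, the acetylcholine-making enzyme of striatal interneurons, differed by 0.20 ± 0.106 (adjusted p = 0.71). None of 12 interneuron markers passed, against 0.442% of all genes tested.

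Across all 34 gene lists, medians ran from −0.27 for direct-pathway markers to 0.31 for microglia markers. A member was called in 11 lists and none in 23. Over all genes tested 0.442% were called, so lists of this size without a call do not stand apart from all genes. Of 13 microglia markers none passed, but 12 lay above 0, against 44.6% of all genes tested. An unadjusted p under 0.05 in limma was found for 7 of the 13, all of them higher, against 3.72% of all genes. The mean level of these markers was 9.57, 9.36 and 9.26 in lesioned untreated rats and 9.20, 9.04 and 8.99 in intact rats. The groups were close to each other but did not overlap. Cd68, a lysosomal protein of phagocytes, had values of 8.71, 8.34 and 7.99 against 8.20, 7.32 and 7.23, which overlap (0.77 ± 0.272, adjusted p = 0.41). Tyrobp, an adaptor of microglial receptors, had values of 10.62, 10.33 and 9.87 against 9.75, 9.55 and 9.40 (0.71 ± 0.231, adjusted p = 0.35). The part of microglia in the calls reported here was not tested. Of 11 astrocyte markers, 13 oligodendrocyte markers and 11 endothelial and mural markers none passed, with medians of 0.025, 0.034 and −0.014.

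All 11 cholesterol synthesis genes lay below 0, against 55.4% of all genes tested, with a median of −0.16, and none passed. Of these 11 genes 5 had an unadjusted p under 0.05 in limma, all lower, against 4.07% of all genes. Fdft1, which makes squalene, had values of 10.00, 10.09 and 10.18 against 10.32, 10.39 and 10.42, without overlap (−0.29 ± 0.0824, adjusted p = 0.24). Idi1, an isomerase earlier in the path, differed by −0.34 (adjusted p = 0.33). Of 10 glucocorticoid-regulated genes 4 had an unadjusted p under 0.05, all higher, against 3.72% of all genes, and none passed (median 0.15). Of 24 respiratory chain genes none passed, and 18 lay below 0, against 55.4% of all genes tested (median −0.062).

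**Figure D4:**
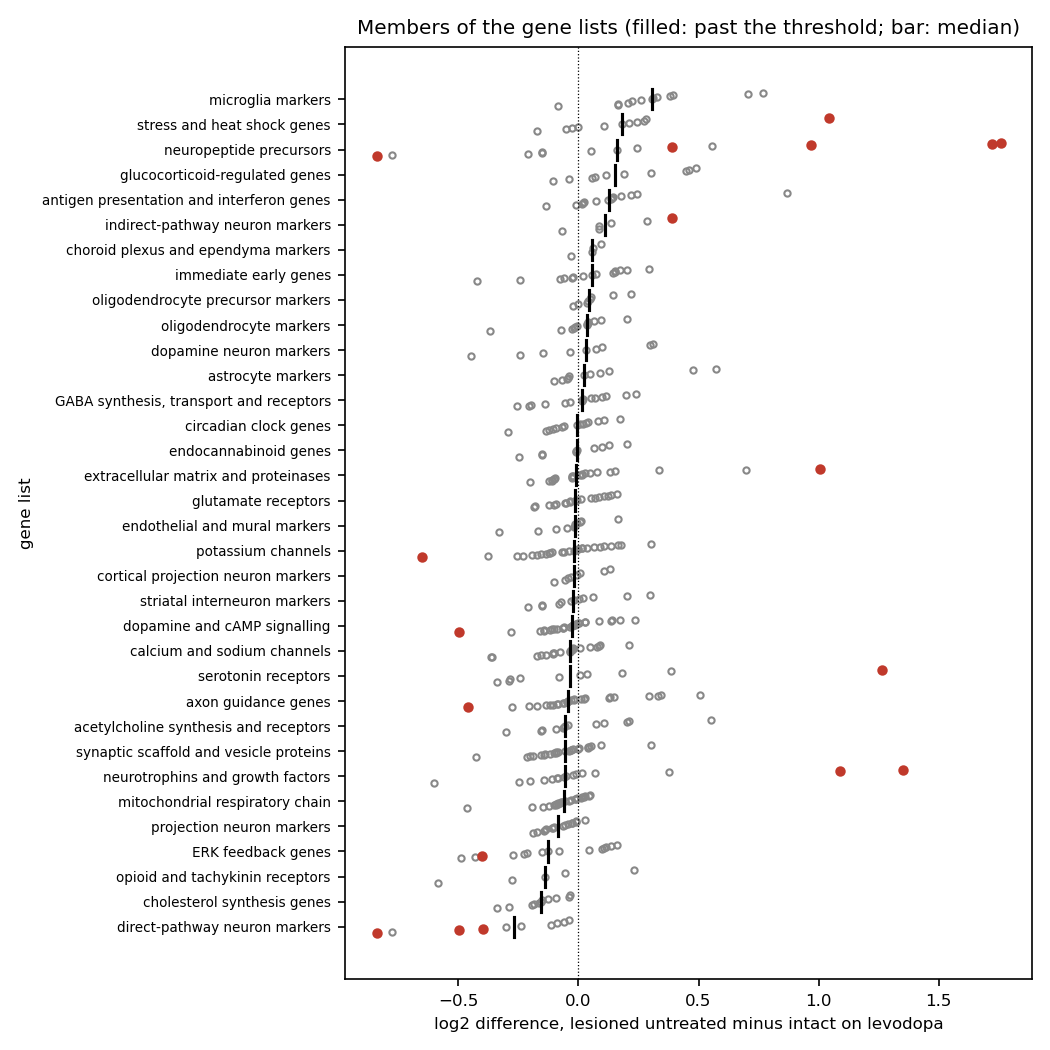
Differences of the tested members of 34 gene lists, ordered by list median. Each circle is 1 gene (log2, lesioned untreated minus intact on levodopa), filled where it passed the threshold, and the bar is the list median. The medians run from −0.27 to 0.31, and calls lie mainly among neuropeptide precursors, growth factors and direct-pathway markers. The lists were chosen with earlier results of these data known.

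Each gene value is a mean of probe sets that target separate exon regions, so the probe sets show whether a difference runs along the transcript. In 43 of the 55 called genes all probe sets pointed the same way, among them 3 genes with a single probe set. The genes were called on the mean of these same probe sets, which favours such agreement. The share over all genes tested is not given here, so the counts are descriptions. All 5 probe sets of Htr2a, 6 of Fst, 7 of Tac3, 4 of Drd1 and 6 of Kcng1 separated the groups without overlap. In Nts 3 of 4 did so, with differences of up to 2.31 and a lowest of 0.55. In Tac1 6 of 7 did so, with a range from −1.14 to −0.26. Some genes were mixed: Pde1c was higher in 18 and lower in 5 of 23 probe sets, and Ptpn13 higher in 44 and lower in 4 of 48.

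**Figure D5:**
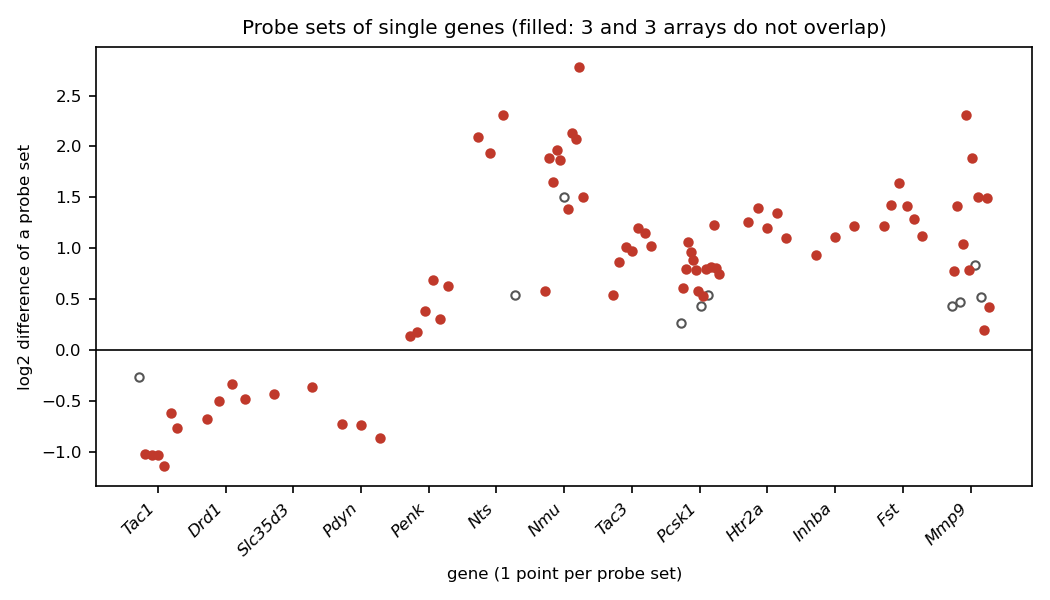
Differences of single probe sets in 13 genes (log2, lesioned untreated minus intact on levodopa). Each point is 1 probe set, filled where the 3 and 3 arrays do not overlap; all probe sets of a gene lie on the same side of 0, and those of Nmu spread from 0.58 to 2.78.

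Many calls were lost when 1 of the 6 arrays was left out, which also lowers the number of animals. Between 25 and 37 of the 55 calls were kept when 1 of the 6 arrays was left out: 34, 25 and 37 without lesioned untreated arrays 1, 2 and 3, and 31, 33 and 26 without intact arrays 1, 2 and 3. The number of genes called then lay between 25 and 43. Calls of 14 genes held in all 17 alternative settings: Nts, Fst, Htr2a, Kcnab3, Tac3, Mrap2, Pcsk1, Vxn, Syt10, Acvr2a, Npl, Tac1, Kcng1 and Begain. Another 6, Mmp9, Cntnap3, Pde1c, Prokr2, Tmem74 and Itga8, held in the 15 or 16 settings that tested them. All 6 fell out of the setting without the lowest 50% of genes by mean. Mmp9, Cntnap3, Prokr2 and Tmem74 also fell out where dim probe sets were left out. Those settings therefore did not check the calls of these dimmer genes. Of the 7 genes with a rise of at least a doubling, Hspb1, Inhba and Nmu lost their call without 6, 4 and 1 of the 6 arrays in turn. Calls of 17 genes were lost in 6 or more settings, and no called gene changed direction in any of them.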

How the data were processed

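Total RNA of tissue punches was measured on Affymetrix whole-transcript exon arrays, 1 animal per array. The deposited log2 values were made by the authors with RMA in oligo 1.34 under R 3.2.3, per the submitters' processing notes. The array annotation of 2010 gives a single gene to 172924 of the 213067 probe sets, several to 1661 and none to 38482. Of 16633 symbols, 3700 were updated through the RefSeq gene list of GRCr8 and 55 kept as given. Probe sets naming a gene alone were averaged. Probes shared with related genes were not checked.

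All 12 striatal arrays entered a limma fit (version 3.58.1, under R 4.3.3 with data.table, version 1.17.8), 1 mean per group, leaving out the lowest 25% of genes by mean. The standard error pools the spread of all 4 groups, and p was adjusted by Benjamini and Hochberg at 0.05 over 12436 genes. A difference between tissues was fitted over 24 arrays, taking animal as a random block. The fit was tested on simulated data. The number of arrays limits the precision.

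The genes compared and the 34 lists (543 genes, 43 not analysed here) were chosen with earlier results of these data known. The rule names the 15 largest rises and falls past the threshold without overlap of arrays, up to 4 called members of a list, and Fosb, Pdyn, Nr4a2, Trh, Penk, Tac1, Drd1, Drd2, Th, Htr2a and Chat. It covers 33 of the 55 calls; the other 22, and list members and relatives of called genes that did not pass, were named after their values were seen. The 17 alternative settings changed the summary, filter, scaling, variance estimate or samples of the fit, added a replicate block, or left out 1 of the 6 arrays.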

Additional observations from a re-analysis of the deposited data

Results flagged for a closer look

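The difference between lesioned untreated and intact levodopa-treated rats was compared between striatum and nigra in limma, with the animal as a random block. Values are given only for the genes that the rule names whether called or not, from Fosb to Htr2a. Chat, also named so, was not among the genes tested in both tissues. The comparison for other called genes is not given here. Over all genes 5.72% of 12114 passed. The striatal minus the nigral difference was 1.97 ± 0.193 for Htr2a (adjusted p = 5.1e-07), which rose in striatum and fell by 0.71 in nigra. It was −1.46 ± 0.248 for Tac1 (adjusted p = 0.00051), which fell in striatum and differed by 0.61 in nigra without passing there (adjusted p = 0.091). For Pdyn it was −0.89 ± 0.219 (adjusted p = 0.015), with a nigral difference of 0.11.

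For 3 genes carried by nigral dopamine neurons the tissue difference rested on the nigra. It was 2.92 ± 0.358 for Th (adjusted p = 1e-05), 2.66 ± 0.411 for Nr4a2 (adjusted p = 0.00019) and 1.81 ± 0.178 for Drd2 (adjusted p = 5.1e-07), and the nigral differences were −2.62, −2.47 and −1.67, while none of the 3 passed in striatum. Drd1 (−0.90, adjusted p = 0.11), Penk (−0.29, adjusted p = 0.74), Fosb (0.16, adjusted p = 0.83) and Trh (−0.29, adjusted p = 0.74) did not pass. The striatal and nigral samples came in part from the same animals.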

How the results depend on the processing

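Taking the median over probe sets gave 35 calls (13 lower), and array weights gave 191 (96 higher, 95 lower), against 55 (33 and 22). Without 1 of the 6 compared arrays, 25 to 43 genes were called, 19 to 28 higher and 4 to 18 lower. Without 1 of the 6 arrays of lesioned rats on levodopa, added after seeing the data, 49 to 68 were called, with 29 to 37 higher and 20 to 31 lower. The 6 compared arrays alone gave 75, and the other filters, scalings and variance settings 43 to 58. With the replicate number as a block, 78 genes were called (49 higher, 29 lower) and 53 of the 55 were kept. The numbers do not pair the samples, which came from different animals, and deviations of same-numbered arrays correlated at 0.383, 0.000667 and 0.0411. The cause of these shifts was not tested. Direct-pathway markers all stayed below 0 under quantile scaling and median centring, which moved their median to −0.25 in both, and all 11 cholesterol genes did too. With the median over probe sets 2 direct-pathway markers lay above 0, and 1 did so without lesioned untreated array 2 or intact array 2. The nigral falls of Th, Slc6a3, Slc18a2 and Ddc passed in every setting run for them. No depth is known for arrays.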

Other observations

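Single probe sets that departed from the rest of their gene were sought with limma's diffSplice, added after seeing the data. In 83 of 11567 genes with several probe sets (0.718%) the probe sets differed from each other. Of 123008 probe sets tested 104 were called, and 64 of these had no overlap of the 3 and 3 arrays. They were called on differences between the same arrays, and the share without overlap over all probe sets is not given here. Cacnb2, the beta 2 subunit of voltage-gated calcium channels, had 1 such probe set with log2 values of 8.67, 8.57 and 8.78 in lesioned untreated and 9.55, 9.60 and 9.72 in intact striatum. That probe set differed by −0.95, against a median of 0.04 over the other probe sets of the gene (adjusted p = 5.5e-06). It stood at 8.83, 9.14 and 9.27 in non-dyskinetic and 8.33, 8.48 and 8.40 in dyskinetic rats. Stxbp5l, a syntaxin-binding protein, had a probe set that differed by 2.77, but its values split within groups: 6.71, 9.65 and 9.34 in lesioned untreated, 6.41, 5.48 and 5.51 in intact, and 5.97, 8.85 and 9.78 in non-dyskinetic rats. The cause of this split was not tested.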
